A study of Mus musculus with 4 samples.

Results

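The probes described here are the mutated version of the p53 E design, synthetic DNA sequences named p53_E_mut_60, and the design itself, named p53_E60. They were found by name and made up 512 of 6126 library probe names, as many in each version. Each mutated probe was paired with the design probe that carries the same 4 varied bases. Each pair was read on 4 DNA arrays: 1 irradiated (UV) and 1 non-irradiated (non-UV) array bound by an antibody against cyclobutane pyrimidine dimers (CPD), and 1 UV and 1 non-UV array bound by an antibody against 6-4 photoproducts (6-4PP). The antibodies were used at dilutions of 1 in 400 for CPD and 1 in 80 for 6-4PP, and bound antibody was read as the intensity of a fluorescent label. Each array's condition is the one in its own labelled field. For the 6-4PP antibody the sample titles contradict that field by exchanging UV and non-UV, and the names used below follow the field. The labels explain neither the letter E in the design's name nor whether the probes were made double-stranded, so dipyrimidines of the opposite strand count only if they were.

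UV light links neighbouring pyrimidines on a DNA strand, either through a ring of shared bonds, which gives a CPD, or through a single bond between the bases, which gives a 6-4PP. Both lesions need a dipyrimidine, that is TT, TC, CT or CC, and a purine pair on the listed strand is a dipyrimidine on the opposite strand. p53, the tumour suppressor for which the design is named, binds as a tetramer to paired copies of a short element with a conserved C, a central pair of A or T, and a conserved G. These arrays measured antibodies and not p53.

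The probes had 60 bases, with the varied bases at positions 11 to 14 counted from the 5′ end. Outside the varied bases, the design held CATG at positions 6 to 9 and again at positions 16 to 19, and the mutated version held no CATG there. Every pair differed by the same 3 substitutions, C4T, C6T and C16T, each written as the design's base, its position and the mutated base. The pair with varied bases TCTG is shown whole because all 10 spots of its mutated probe were at the scanner's ceiling with the 6-4PP antibody, and capitals mark the 3 changed bases.

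p53_E_mut_60_TCTG: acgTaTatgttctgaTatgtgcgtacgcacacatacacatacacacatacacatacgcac

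p53_E60_TCTG: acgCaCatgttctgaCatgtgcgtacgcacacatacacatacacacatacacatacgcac

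None of the substitutions added or removed a dipyrimidine, so both probes of every pair held the same number, and all lay within the varied bases and the base on either side. Counted on both strands, 16 pairs had 0, 160 pairs had 2 and 80 pairs had 4. Position 10 is T, so a pyrimidine as the first varied base made a dipyrimidine on the listed strand. Position 15 is A, so a purine as the last varied base made a dipyrimidine on the opposite strand. The substitution C16T lies next to that last dipyrimidine, and it puts A in the mutated probe in place of G in the design on its 5′ side. The other 2 substitutions have no dipyrimidine next to them. The opposite strand of positions 24 to 1 shows this for CCTG and TTCA, which end in a purine and were among the largest differences, with positions 16 to 13 in capitals.

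p53_E_mut_60_CCTG: acgcacatATCAggacatatacgt

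p53_E60_CCTG: acgcacatGTCAggacatgtgcgt

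p53_E_mut_60_TTCA: acgcacatATTGaaacatatacgt

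p53_E60_TTCA: acgcacatGTTGaaacatgtgcgt

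A probe's value was the median intensity of its unflagged spots, 10 at most, given below with the SD of those spots, and a pair's difference was the log2 of the mutated probe's median minus that of the design probe. The median SD of log2 intensity over the spots of a probe was 0.27 for the mutated and 0.31 for the design probes with 6-4PP after UV. With CPD after UV, it was 0.48 for the mutated and 0.53 for the design probes. Each pair was tested on each array by an exact two-sided permutation test over its spots, with Benjamini-Hochberg adjustment over the 2560 pairs of the 10 site libraries that have a changed version. A pair was called at an adjusted p below 0.05. Such a test compares spots of 1 array. There was 1 array per antibody and condition, so no UV against non-UV difference has a test. The amount of DNA in a spot was not corrected for, and its part in any difference was not tested.

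The mutated probes were brighter than the design probes on the 6-4PP UV array. Their intensity ranged from 3959.5 to 65535 with a median of 18983.5 in the mutated version, against 5316 to 65535 with a median of 11553.5 in the design. The difference had a median of 0.51 over all pairs and ran from -0.70 to 2.18, with 226 pairs above 0 and 29 below. In 138 pairs (53.9%) the mutated probe was called higher, against 7.93% of all 2560 pairs of the series. In 1 pair it was called lower, against 2.42%. The scanner's ceiling of 65535 was reached by the medians of 15 mutated probes and 1 design probe, so differences of those pairs are bounds.

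The size of the 6-4PP difference went with the last varied base, a grouping made after the values had been seen and therefore given without a test. With G as the last base, the 64 mutated probes had a median of 26336, against 12177 in the design, and a median difference of 1.14 with a range of 0.46 to 2.18. With A, the medians were 19670 in mutated and 11755 in design probes and the median difference was 0.73, with a range of 0.10 to 1.82. With C, the medians were 12684 in mutated and 11009 in design probes, and the difference was 0.25, with a range of -0.70 to 0.89. With T, they were 13152 in mutated and 11152 in design probes, and the difference was 0.21, with a range of -0.63 to 0.89. All 128 pairs that end in a purine were brighter in the mutated version, and 94 of them (73.4%) were called higher. Of the 128 that end in a pyrimidine, 98 were brighter and 29 dimmer in the mutated version, and 44 (34.4%) were called higher.

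Pairs that share their first 3 varied bases differ from each other in the last varied base alone, and there are 64 such triplets. On the 6-4PP UV array, the difference with G as the last base exceeded that with C in 64 of 64 triplets, by a median of 0.98 and by 0.12 to 1.75. The difference with A exceeded that with T in 64 of 64 triplets as well, by a median of 0.66 and by 0.07 to 1.24. On the 6-4PP non-UV array, the same counts were 24 of 64 for G over C and 36 of 64 for A over T. T exceeded C in 25 of 64 triplets on the UV array, with a median of -0.05. The difference was thus larger with the purine in both comparisons, and among the purines G was above A in 60 of 64 triplets by a median of 0.33. These counts include mutated probes at the ceiling, 8 ending in G, 6 in A and 1 in C. The order of G and A is not settled where the pair ending in A was at the ceiling. GATC was at the ceiling in both versions, so its triplet gives no measured comparison of G with C.

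On the opposite strand, a last base of G makes a TC step and a last base of A makes a TT step, each preceded by A in the mutated and by G in the design probes. The 16 pairs with ATCA in place of GTCA had medians of 32919 in mutated and 12177 in design probes. Their median difference was 1.48, and all 16 were called higher. ATCG in place of GTCG had a median difference of 1.19, ATCC in place of GTCC 0.87 and ATCT in place of GTCT 0.80, with 14, 11 and 12 of 16 pairs called higher. Among the TT steps, ATTA in place of GTTA had the largest median difference, 1.07, with medians of 21539 in mutated and 10630 in design probes and 14 of 16 called higher. The other 3 TT contexts had median differences between 0.61 and 0.73. In each context all 16 pairs were brighter in the mutated version, and the sizes overlapped between contexts. C4T, C6T and C16T occur together in every pair, so their parts in these differences cannot be told apart. ATCA against GTCA spanned 0.71 to 2.18 and ATTT against GTTT, the context with the lowest member, 0.10 to 1.32.

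Among called pairs below the ceiling, the 5 largest differences on the 6-4PP UV array all belonged to pairs that end in a purine. For CCTG, the mutated probe's spots ran from 33792 to 65535 with a median of 45504, and the design probe's from 9151 to 17389 with a median of 11908.5. The spots of the 2 probes did not overlap, the difference was 1.93 and the adjusted p was 0.000433 by the exact permutation test, whose unadjusted p of 1.08e-05 was the smallest that 10 against 10 spots allow. TTAG had 56110 ± 9805 in the mutated and 15650.5 ± 2074 in the design probe (SD, 10 spots each), a difference of 1.84. TTCA had 64740 ± 5274 in the mutated and 18303 ± 2369 in the design probe (SD, 10 spots each), a difference of 1.82. In ATTG the mutated probe's spots ran from 21492 to 65535 and the design probe's from 13553 to 22036, so they overlapped slightly, and the difference was 1.82. CCCG followed at 1.71, with medians of 48221 in the mutated and 14729 in the design probe. In all 5 except CCCG, whose brightest mutated spot was 64476, single mutated spots reached the ceiling while the median stayed below it.

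Of the 15 mutated probes at the ceiling, 14 ended in a purine, 8 of them in G and 6 in A. They have no order among themselves. In TCTG all 10 mutated spots were at 65535, while the design probe had 14447 ± 1586 (SD, 10 spots), so the mutated probe was at least 4.54-fold brighter. TCCG was at least 4.37-fold brighter, with 15006.5 in the design probe. The 15th, GATC, was at the ceiling in both versions, and no difference could be measured.

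GATC and the other sequences that end in ATC carry ATCA on the listed strand of both versions, at positions 12 to 15. GATC is shown with the varied bases in capitals.

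p53_E_mut_60_GATC: acgtatatgtGATCatatgtgcgt

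p53_E60_GATC: acgcacatgtGATCacatgtgcgt

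AATC had 51140 in the mutated and 50719 in the design probe, a difference of 0.01. The 3 brightest design probes were GATC, AATC and GATT, the last with 49994 ± 10383 (SD, 9 spots). CATC had 44108 in the mutated and 31697 in the design probe, a difference of 0.48 that was called. TATC had 36406 in the mutated and 26553 in the design probe, a difference of 0.46 that was called, but by the spatially adjusted intensity its difference was 0.50 and its adjusted p 0.0684 by the exact permutation test.

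The 16 pairs without a dipyrimidine went the other way. Here every mutated probe was dimmer on the 6-4PP UV array. The mutated probes had a median of 4615 and a range of 3959.5 to 6199.5, against a median of 6492 and a range of 5316 to 7957 in the design, so the groups overlapped. The difference had a median of -0.48 and ran from -0.70 to -0.11. Of these pairs 1 was called lower, GTGC, with 4338 ± 840 in the mutated and 6626 ± 2033 in the design probe (SD, 10 spots each), a difference of -0.61 and an adjusted p of 0.000702 by the exact permutation test. By the adjusted intensity 3 of the 16 were called lower. With pairs left out in which neither probe exceeded the 95th percentile of library sequences without a dipyrimidine, none was, since both GTGC probes lay below it. For that set of library sequences, the last bases at the 3′ end were left out of the count and may hold a dipyrimidine. The listed strand of GTGC alternates purine and pyrimidine throughout.

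p53_E_mut_60_GTGC: acgtatatgtGTGCatatgtgcgt

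p53_E60_GTGC: acgcacatgtGTGCacatgtgcgt

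With 2 dipyrimidines the 6-4PP UV median was 15195 in mutated and 10279 in design probes, and with 4 it was 27739 in mutated and 15917 in design probes. The median with 4 was thus 6.01-fold that with 0 in the mutated version and 2.45-fold in the design. The fitted slope per dipyrimidine was 0.58 in the mutated version and 0.29 in the design on the log2 scale. Among pairs with the same number of dipyrimidines, the median difference was again larger with a purine at the end, with ranges that overlapped. With 2 dipyrimidines, the median difference was 0.85 over 64 pairs that end in a purine and 0.22 over 96 that end in a pyrimidine. With 4, it was 0.93 over 64 pairs that end in a purine and 0.53 over 16 that end in a pyrimidine. The dipyrimidine made by a pyrimidine as the first varied base follows G in both versions. Pairs with 2 dipyrimidines that end in a pyrimidine had a median difference of 0.28 where they also start in one and 0.16 where they start in a purine. With 4 dipyrimidines and a purine at the end, the median difference was 1.17 over 48 pairs that start in a pyrimidine, 46 of them called higher. It was 0.64 over 16 that start in a purine, 6 of them called higher. Over all pairs, the median difference was 0.67 with a pyrimidine first, and 91 of 128 (71.1%) were called higher. With a purine first it was 0.39, and 47 of 128 (36.7%) were called higher. The ranges overlapped.

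The central dinucleotide of the varied bases grouped the pairs into sets of 16. With central TT the 6-4PP UV medians were 32283 in mutated and 20124 in design probes, and all 16 pairs were called higher, with a median difference of 0.75. Central CT had 28986 in mutated and 18739 in design probes, and 14 of 16 were called higher, with a median difference of 0.81. Central CC had 19727 in mutated and 11797 in design probes with 12 called higher, and central TC had 22880 in mutated and 15319 in design probes with 11 called higher. When the same types lay on the opposite strand, as central AA, GA, AG and GG, 6, 8, 5 and 6 of 16 pairs were called higher, and the median differences were 0.41, 0.49, 0.32 and 0.37. The listed-strand types thus had the larger median differences. Their ranges overlapped: central TC spanned 0.00 to 1.82 and central GA -0.01 to 1.25.

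The other 4 of the smallest differences among called pairs were increases. TGAT had 31131 ± 4909 in the mutated and 26579 ± 4590 in the design probe (SD, 10 spots each), a difference of 0.23. ACTT had a difference of 0.24, ATCT 0.26 and TGGT 0.27, and ACTT was not called by the adjusted intensity, with a difference of 0.25 and an adjusted p of 0.414 by the exact permutation test. All 4 end in T. Among the pairs of 1 repeated base, AAAA had 20296 ± 7724 in the mutated and 13425 ± 1849 in the design probe (SD, 10 spots each). Its spots ran from 4028 to 27096 in the mutated probe, and the difference of 0.60 was not called, with an adjusted p of 0.749 by the exact permutation test. GGGG had a difference of 1.07 and an adjusted p of 0.0673 by the same exact test, with a mutated spot at 3442 and a design spot at 3517. By the adjusted intensity GGGG was called, with an adjusted p of 0.0119 by the exact permutation test. CCCC at 0.41 and TTTT at 0.55 were called higher.

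The sequences of 64 pairs, all ending in C, were also printed under the names p53_mut_60 and p53_60, on spots that the E names did not use. On the 6-4PP UV array the median difference of these pairs was 0.25 under the E names and 0.25 under the other names. The 2 sets of differences correlated with a Pearson r of 0.81 over the 64 pairs, which share a backbone and an array, and had the same sign in 56. On the CPD UV array the median was 0.02 under the E names and -0.08 under the other names, r was 0.09, and 41 of 64 had the same sign. The differences of single pairs thus recurred on the 6-4PP UV array and hardly at all on the CPD UV array. Pairs that end in A, G or T had no such second set.

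On the CPD UV array the medians of both versions were close and few pairs were called. Intensity ranged from 1532.5 to 18468 with a median of 5698 in the mutated version, against 1318.5 to 13796.5 with a median of 5418 in the design. The difference had a median of 0.11 and ran from -1.22 to 1.48, with 167 pairs above 0 and 89 below. By the spatially adjusted intensity that the authors also deposited, its median was 0.00, with 129 above 0 and 127 below. The mutated probe was called higher in 2 pairs (0.78%), against 0.0781% of all pairs of the series, and lower in 0, against 0.0781%. The 2 calls were AAAA and TGGA. AAAA had 12606 ± 1043 in the mutated and 8412 ± 989 in the design probe (SD, 10 spots each), a difference of 0.58 and an adjusted p of 0.0277 by the exact permutation test. TGGA had 9301 ± 1305 in the mutated and 5403 ± 1419 in the design probe (SD, 10 spots each), a difference of 0.78. By the adjusted intensity 7 other pairs were called higher and 4 lower, and neither of these 2 was called. By that intensity the 9 other libraries had 1 to 4 pairs called higher and 0 to 6 lower, the 6 in the p53_60 pairs. The difference of AAAA was then 0.41 and that of TGGA -0.32.

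The local median across the CPD UV array ran from 1111 to 8004, and adjustment for it brought the spot SD down to 0.32 in mutated and 0.35 in design probes. By that adjusted intensity the last base again went with the difference, to a smaller extent than with 6-4PP. G exceeded C in 49 of 64 triplets with a median of 0.21, and A exceeded T in 47 of 64 with a median of 0.29. Without adjustment the counts were 47 and 51 of 64. The 16 pairs without a dipyrimidine had medians of 2573.5 in mutated and 3590 in design probes, a median difference of -0.34 with 14 of 16 lower, and by the adjusted intensity -0.33 with 13 of 16 lower. None of these pairs was called on the unadjusted values and 3 were called lower on the adjusted ones. The median with 4 dipyrimidines was 2.67-fold that with 0 in the mutated version and 1.69-fold in the design.

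The brightest CPD probes carried runs of T in both versions. They were TTTA at 18468 ± 3894, TTTT at 18354.5 ± 5558 and TTTG at 16270 ± 4614 in the mutated version, and TTTT at 13796.5 ± 2511, TTTG at 13456.5 ± 2219 and AATT at 11554 ± 2386 in the design (SD, 10 spots each). The dimmest were CCCC at 1532.5, GTCC at 1618.5 and GCAC at 1710 in the mutated version, and GGGC at 1318.5, GGGG at 1493.5 and ACCC at 1511.5 in the design. Of these 6 probes GCAC alone holds no dipyrimidine. The design probes without one had no value under 2572. CCCC and GGGG went in opposite directions between the versions, with differences of -1.02 and 1.48, and neither was called. By the adjusted intensity these were 0.15 and 0.70. With 6-4PP, the dimmest mutated probes were GCAC, GCGT and ACAT, which hold no dipyrimidine, at 3959.5, 4173.5 and 4268.5. The dimmest design probes were ACGT at 5316 and ATAT at 5443, which hold none, and GGCT at 5471, which holds 2.

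Without irradiation, intensities were low and the mutated version had the higher median with both antibodies. The sizes depend on the background: with the lowest probe of the array subtracted, the median difference was 0.94 for 6-4PP and 0.83 for CPD, against 0.20 for 6-4PP and 0.16 for CPD without subtraction. On the 6-4PP non-UV array 0 pairs had a probe above 61, the 95th percentile of library sequences without a dipyrimidine. On the 6-4PP non-UV array the mutated probes had a median of 43 and a range of 36 to 59.5, against a median of 37.5 and a range of 33 to 44 in the design. The difference had a median of 0.20 and ran from -0.15 to 0.59, with 243 pairs above 0 and 8 below. The mutated probe was called higher in 103 pairs (40.2%), against 10.2% of the series, and lower in 0, against 4.49%. The p53_mut_60 and p53_60 pairs, which carry the same 3 substitutions, had a median difference of 0.21 there and 119 called higher. The p53 E pairs that end in a purine and in a pyrimidine had the same median difference on that array, 0.20. The number of dipyrimidines made little difference either, with medians of 0.20, 0.19 and 0.23 for 0, 2 and 4. Mutated and design intensities, whose probes share an array and all but the changed bases, hardly correlated over all pairs there, with a Pearson r of 0.13. On the other arrays r was 0.76 to 0.84.

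On the CPD non-UV array the mutated probes had a median of 31.5 and a range of 25.5 to 88.5, against a median of 29 and a range of 25 to 44.5 in the design. Here the median difference was 0.16, with 203 pairs above 0 and 41 below. The mutated probe was called higher in 32 pairs (12.5%), against 1.91% of the series, and lower in 0, against 0.391%. The p53_mut_60 and p53_60 pairs had a median difference of 0.10 there and 13 called higher. T-rich probes were among the brightest without UV. With central TT the medians were 48.25 in mutated and 37 in design probes, and all 16 pairs were brighter in the mutated version, 9 of them called. The brightest CPD non-UV probe of the mutated version, TTTA at 88.5 ± 8.51 (SD, 10 spots), was also its brightest CPD UV probe. TTTT had 57.5 ± 12.8 in the mutated and 37.5 ± 6.24 in the design probe (SD, 10 spots each), a difference of 0.62 that was called with an adjusted p of 0.00718 by the exact permutation test. TTAG had 64 in the mutated and 35.5 in the design probe, a difference of 0.85, and was called as well.

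Intensity was far higher on the UV than on the non-UV array of each antibody, by more than the versions differed, with 1 array per condition and no test. With the 6-4PP antibody, the UV minus non-UV difference had a median of 8.79 in the mutated version and 8.27 in the design. It was 6.77 in mutated and 7.43 in design probes without a dipyrimidine, and 9.30 in mutated and 8.72 in design probes with 4. Read by the titles of the 6-4PP arrays, these signs turn. With the CPD antibody, the median was 7.49 in the mutated version and 7.53 in the design. Without a dipyrimidine, it was 6.45 in mutated and 7.04 in design probes.

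Among the 10 libraries with a changed version, the p53 E pairs differed most widely on the 6-4PP UV array. The SD of their differences was 0.56, against 0.15 to 0.26 in the 9 others, and their median of 0.51 lay outside the -0.11 to 0.16 of the others. Probes at the ceiling were not counted in the 9 others, several of which held pairs with a difference of exactly 0. A pair with both probes at the ceiling has a difference of 0, and how far that narrowed their spread was not tested. They held 138 of the 203 pairs called higher there. The p53_60 pairs, with a median of 0.16 and 54 called higher, carry the same 3 substitutions but a fixed C at position 14. None of them thus has a dipyrimidine next to C16T, and whether that bears on the size of the difference was not tested. On the 6-4PP non-UV array, the E median of 0.20 lay within the -0.07 to 0.21 of the others, and its SD of 0.12 lay within their 0.09 to 0.24. On the CPD UV array, the E median of 0.11 lay within the -0.07 to 0.12 of the others, and on the CPD non-UV array its 0.16 lay above their -0.05 to 0.10. These comparisons of libraries are descriptions without a test.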

How the data were processed

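The files hold spot intensity, which the authors deposited on a linear scale as a raw column, a column without flagged spots and a spatially adjusted column. By the values, the adjusted column equals the unflagged intensity times the array median over the local median. The deposited Cy3 column was 1 at every spot. Each array held 62976 spots, 61260 with a library sequence. Of the p53 E spots, 23 mutated and 19 design spots were flagged under 6-4PP with UV, 55 mutated and 47 design spots under 6-4PP without UV, and 0 under CPD. Each probe kept at least 7 spots. No source used here states UV dose, scanner or scan settings. The number of arrays limits the precision.

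The unflagged intensity was used, with the adjusted one as an alternative. The test enumerated every split of the spots (184756 for 10 against 10, smallest p 1.08e-05) on mean log2 intensity, in Python 3.11.15 with numpy 2.4.6. It was also run on simulated spots, drawn independently with a common SD per array and without a ceiling or a spatial trend. That run therefore does not cover the ceiling or the spatial trend of these arrays. Dipyrimidines were counted on both strands. For the set of library sequences without a dipyrimidine, used for the dim probes and for centring, the last bases at the 3′ end were not counted. Named pairs were the 5 largest and 5 smallest differences among called pairs below the ceiling on each UV array, the 4 pairs of 1 repeated base, the 3 brightest and 3 dimmest probes of each version, and central dinucleotides. Pairs at the ceiling, pairs ending in ATC and the other pairs named were chosen after their values were seen, as were the groupings by last base and by dipyrimidine number. Members and lists were chosen with earlier results of these data known. Alternatives were other intensity columns, spot summaries, flags, ceiling, dim probes, thresholds, centring, the array titles and the bases counted.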

Additional observations from a re-analysis of the deposited data

Results flagged for a closer look

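The 16 pairs without a dipyrimidine had median differences of opposite sign on the UV and the non-UV array of each antibody, with 1 array per condition, so this was not tested. With the 6-4PP antibody the median difference was -0.48 on the UV array and 0.20 on the non-UV array. With the CPD antibody it was -0.34 on the UV array and 0.09 on the non-UV array.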

How the results depend on the processing

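Of the recomputed main values, 135 kept their direction and stayed within the spread between spots, or within 1.5 times for counts. Another 19 moved further and 5 changed sign. Many of the 135 could not change: leaving out the outer spots keeps a median as it is, and 0 CPD spots were flagged. Counting only the varied bases and their neighbours keeps every rise per dipyrimidine, because all dipyrimidines lie there. Leaving out pairs at the ceiling changes nothing on the CPD and the non-UV arrays, where 0 p53 E probes were at it. The spot spread on the CPD UV array, with median SDs of 0.48 and 0.53, exceeds the median difference there. Its median of 0.11 against 0.00 by the adjusted intensity was therefore counted as kept. The rises per dipyrimidine on the CPD UV array, 0.27 in the mutated version and 0.15 in the design, were also below that spread. Their being counted as kept thus says little. With the adjusted intensity, calls on the CPD UV array were 7 higher and 4 lower. Calls higher on the CPD non-UV array were then 65, and calls lower on the 6-4PP UV array were 3. In the 9 other libraries, calls on the CPD UV array by that intensity ran from 1 to 4 higher and from 0 to 6 lower. Their calls higher on the CPD non-UV array ran from 0 to 29, and their calls lower on the 6-4PP UV array from 1 to 19. The 3 lower p53 E calls thus lay within the range of the others. In the p53_60 pairs, the same counts were 1 higher and 6 lower, 29 higher, and 2 lower. With the brightest and dimmest spot left out, the p53 E calls were 7 higher on the CPD UV array and 5 lower on the 6-4PP UV array. At an adjusted p below 0.01 by the exact permutation test, 0 pairs were higher under CPD with UV, and 40 under 6-4PP without UV. Among these alternatives, calls in the 9 other libraries were counted for the adjusted intensity alone. How the p53 E counts of the other alternatives compare with theirs was not tested. With dim pairs left out, 0 were lower on the 6-4PP UV array, and the 6-4PP non-UV array kept no pair. With the lowest probe subtracted, the median difference was 0.83 for CPD and 0.94 for 6-4PP without UV.

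The UV minus non-UV medians, centred on all library sequences, were 0.37 in mutated and 0.40 in design probes with CPD, and 0.71 in mutated and 0.20 in design probes with 6-4PP. Centred on sequences without a dipyrimidine, they were 1.11 in mutated and 1.15 in design probes with CPD, and 2.28 in mutated and 1.77 in design probes with 6-4PP. By the 6-4PP titles they were -8.79 in mutated and -8.27 in design probes. The design's rise per dipyrimidine on the 6-4PP non-UV array, -0.00096, was 0.0017 by adjusted intensity, 0.0013 by the mean of spots and 0.0055 on the listed strand alone. On the CPD UV array, the adjusted intensity gave -0.13 for pairs ending in a pyrimidine, -0.071 for 2 dipyrimidines, -0.32 for TGGA and 0.15 for CCCC, and the mean of spots gave -0.029 for pairs ending in a pyrimidine. The causes were not tested. Adjusted intensity ended the calls of AAAA on the CPD UV array and of ACTT on the 6-4PP UV array. With it GGGG was called on the 6-4PP UV array. GGGG was also called there with outer spots left out, a setting in which the test does not allow for that removal. The mean of spots leaves the test as it is. No paired analysis was possible because each group held 1 array.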
